A study of Mus musculus with 12 samples.

Results

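The genes described here are 10 enzymes and regulators of hepatic gluconeogenesis, chosen by name: Pck1, G6pc, Fbp1, Pcx, Slc37a4, Ppargc1a, Foxo1, Got1, Pdk4 and Creb3l3. They and the further gene lists below were chosen with earlier results of these data known, so shares past the test are a description. All 10 were found among the 24062 genes of the count tables, and all 10 passed the filter on low counts that 12481 genes passed. Liver RNA of 12 female mice of the strain C57BL/6J was sequenced, 6 on the control diet and 6 on the matched diet with BIBB-515 at 55 mg per kg body weight for 10 days. BIBB-515 inhibits lanosterol synthase, an enzyme of cholesterol synthesis encoded by Lss, and the study used it to ask how blocking that enzyme affects liver gene expression and blood glucose. The mice came at 6 weeks of age, were acclimated for 2 weeks, and all ate the control diet (15% of energy from fat, 65% from carbohydrate, 20% from protein) for 3 days before they were randomized. The labels name no transgene or deletion. In the labels control samples have the numbers 1 to 6 and BIBB-515 samples the numbers 6 to 11, used here as mouse numbers. The study had 11 mice per diet. Blood was drawn after 5 h of fasting, but the sources used here do not say when, or in which feeding state, the livers were taken.

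Gluconeogenesis makes glucose from lactate, alanine and other amino acids, and glycerol. In fasting it runs mainly in hepatocytes, where glucagon, through cAMP and the factor CREB, and glucocorticoids raise transcription of its enzymes, and insulin lowers it by removing FOXO1 from the nucleus. Pyruvate carboxylase (Pcx) makes oxaloacetate in mitochondria, cytosolic PEPCK (Pck1) turns it into phosphoenolpyruvate, fructose-1,6-bisphosphatase (Fbp1) removes a phosphate further on, and glucose-6-phosphatase (G6pc), fed by the transporter of the endoplasmic reticulum Slc37a4, releases glucose. The other members serve or steer this route, among them Got1, the cytosolic aspartate aminotransferase of the malate-aspartate shuttle, Pdk4, which switches off pyruvate dehydrogenase, and the transcriptional regulators PGC-1α (Ppargc1a), FOXO1 and CREB3L3.

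The bases before the transcription start are shown for 3 enzymes of the route, because hormones act on the route largely through transcription of such genes, with the Fbp1 and G6pc windows added after their values were seen. RefSeq windows of 300 bases around a gene's start (GRCm38.p6, the same assembly as mm10) were matched to all 10 genes, 14 windows in all, and the 250 bases upstream of the start are printed 5′ to 3′ on the gene's strand. Pck1 is at chr2:173152823-173153072 on the plus strand, Fbp1 at chr13:62888283-62888532 on the minus strand and G6pc at chr11:101367466-101367715 on the plus strand. Capitals mark the letters of a cAMP response element (CRE) half-site on either strand.
Pck1: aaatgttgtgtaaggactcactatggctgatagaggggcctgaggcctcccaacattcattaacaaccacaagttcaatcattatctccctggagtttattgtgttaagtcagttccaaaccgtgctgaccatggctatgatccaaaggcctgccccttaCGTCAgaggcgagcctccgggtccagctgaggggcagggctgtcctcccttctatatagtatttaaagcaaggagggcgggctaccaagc
Fbp1: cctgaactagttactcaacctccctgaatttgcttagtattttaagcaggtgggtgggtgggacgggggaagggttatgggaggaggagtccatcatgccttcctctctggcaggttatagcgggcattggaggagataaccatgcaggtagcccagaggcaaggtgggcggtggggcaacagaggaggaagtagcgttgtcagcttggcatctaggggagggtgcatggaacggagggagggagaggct
G6pc: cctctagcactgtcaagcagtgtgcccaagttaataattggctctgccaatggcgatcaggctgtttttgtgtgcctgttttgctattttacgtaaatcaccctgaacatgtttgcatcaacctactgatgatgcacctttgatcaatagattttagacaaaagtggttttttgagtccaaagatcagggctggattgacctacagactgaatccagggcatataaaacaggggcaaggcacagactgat
In the Pck1 window the half-site TGACG was read on the opposite strand, between positions -90 and -86 from the start. The windows of Fbp1 and G6pc held neither this half-site nor the full CRE TGACGTCA, which contains it. Of all 32851 RefSeq windows 20.8% held the half-site and 1.79% the full CRE. Of the 14 member windows 5 had the half-site, 1 each of Pck1, Ppargc1a and Creb3l3 and 2 of Slc37a4, and none of the 14 windows had the full CRE or the forkhead motif TGTTTAC, which 3.65% of all windows held. The glucocorticoid receptor half-site TGTTCT was in 1 member window, of Creb3l3, against 19.0% of all windows. Both strands were searched, and only for the exact letters of each motif. Sites that differ from these letters were not counted, so a window without a match can still hold such a site. A match says only that the letters are there, and these windows do not reach the more distant elements. The Ppargc1a window starts from a RefSeq start (51567725 on chromosome 5) upstream of the first exon in the count tables (51553921). Both Slc37a4 windows with the half-site likewise have starts (44396946 and 44397099 on chromosome 9) upstream of its first counted exon (44398176). The Creb3l3 window with the glucocorticoid receptor half-site belongs to the start at 81098872 on chromosome 10, where the first exon had 0 reads in every mouse.

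Depth ranged from 22764819 to 31058370 counted reads per mouse. Values are CPM, reads scaled to the library size after TMM normalization, fold changes are from edgeR's quasi-likelihood fit over all 12481 genes, and FDR is the Benjamini-Hochberg adjusted p over the same genes. In this fit 1705 genes passed an FDR of 0.05. The labels number separate samples, each taken here as 1 mouse, and name no batch and no library preparation. The liver label was checked against markers: 6 of 7 listed hepatocyte genes were used, and their summed level was 139000 to 161000 CPM with control diet and 107000 to 121000 CPM with BIBB-515, 2 of the 6 (Alb and Ttr) being lower at an FDR under 0.05. The kidney tubule and the small intestine also express the enzymes of the route. All 5 kidney tubule markers were under 1 CPM in every mouse, with Slc12a1 and Kap at 0 reads, and 4 of 5 intestinal markers were, with Sis and Alpi at 0 reads. The fifth intestinal marker, Fabp2, was at 65.0 to 142 CPM in control mice and 60.9 to 83.1 CPM with BIBB-515 and fell by 0.66 on the log2 scale (quasi-likelihood FDR 0.0114). Its part in the lower RNA of members was not tested. Of 6 fat cell markers 5 were under 1 CPM in every mouse, with Lep at 0 reads, and the sixth, Fabp4, was at 6.82 to 11.2 CPM in control mice and 6.89 to 11.6 CPM with BIBB-515. In a bulk sample, fewer cells of a type and less RNA per cell cannot be told apart.

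With BIBB-515, 3 of the 10 genes had lower RNA at an FDR under 0.05 and the other 7 did not pass the test. The 3 were Pck1 and Fbp1, both enzymes that bypass irreversible steps of glycolysis, and the coactivator gene Ppargc1a. Of all tested genes 6.48% passed in this direction and 13.7% in either direction. The fitted log2 fold change was negative for 8 members and positive for 2 (Slc37a4 and Creb3l3), with a median of -0.33 over the 10 and of -0.01 over all tested genes. By an unadjusted p under 0.05 the count was also 3.

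**Figure D1:**
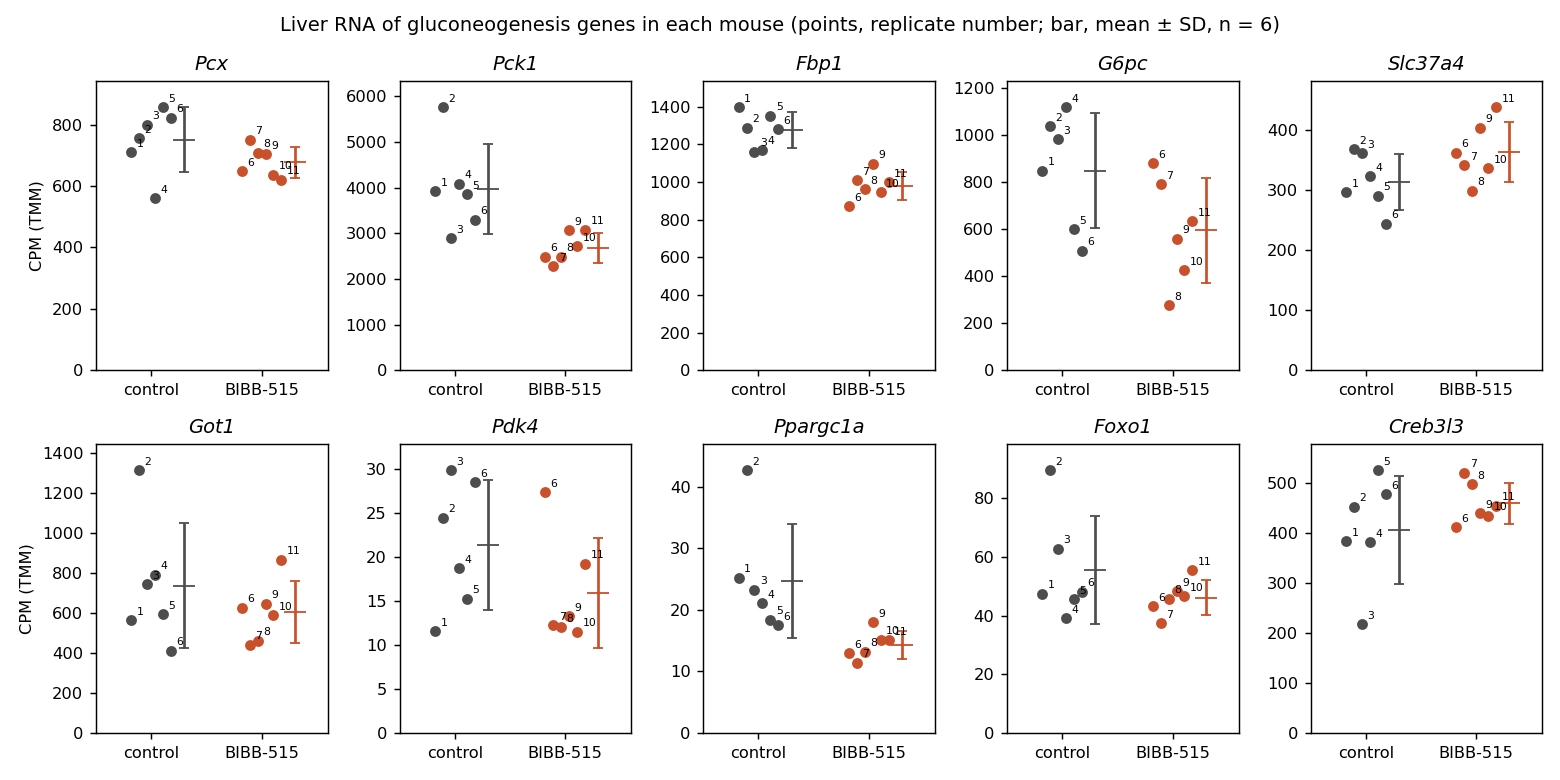
CPM of each gene in each mouse, control in grey and BIBB-515 in orange, points labelled with the replicate number and bars giving mean ± SD (n = 6 per diet), each axis from 0. The Fbp1 points of the diets do not overlap, the Pck1 and Ppargc1a points overlap by 1 or 2 mice per diet, and control mouse 2 is the highest control mouse in Pck1, Slc37a4, Got1, Ppargc1a and Foxo1.

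Fbp1, the enzyme that turns fructose 1,6-bisphosphate into fructose 6-phosphate, lies on chromosome 13 from 62864753 to 62888282 (mm10, minus strand). Its RNA in control mice ran from 1161 CPM through a median of 1285 to 1396 CPM, and with BIBB-515 from 870.3 through 979.6 to 1096 CPM. All 6 BIBB-515 mice were below all 6 control mice, the only one of the 10 genes without overlap (7.07% of all tested genes had none). The log2 fold change was -0.38 (standard error 0.076, 95% interval -0.54 to -0.22, quasi-likelihood FDR 0.00464), which is 23.2% lower RNA. It was also the steadiest of the 10 genes in control mice, with a coefficient of variation between mice of 7.37% there and 7.67% with BIBB-515.

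Pck1, which lies on chromosome 2 from 173153073 to 173159253 (mm10, plus strand), was the most abundant member and varied more. Control mice ran from 2893 CPM through a median of 3889 to 5760 CPM and BIBB-515 mice from 2282 through 2601 to 3080 CPM. Of the control mice 5 were above every BIBB-515 mouse, and 4 BIBB-515 mice were below every control mouse, the overlap being control mouse 3 at 2893 CPM with BIBB-515 mice 9 and 11 at 3070 and 3080 CPM. The fitted fall was 32.3% (log2 fold change 95% interval -0.87 to -0.26), and it was measured on 66120 to 159148 reads per mouse. The coefficient of variation was 24.8% in control mice and 12.3% with BIBB-515.

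Ppargc1a encodes PGC-1α, a coactivator that binds HNF4A, FOXO1 and the glucocorticoid receptor at the promoters of Pck1 and G6pc. The gene lies on chromosome 5 from 51454249 to 51553921 (mm10, minus strand), and in liver its RNA was sparse, with 367 to 1180 reads per mouse. It ran from 17.48 CPM through a median of 22.18 to 42.71 CPM in control mice and from 11.39 through 14.11 to 18.01 CPM with BIBB-515. In 5 of 6 BIBB-515 mice it was below every control mouse. The log2 fold change of -0.79 (standard error 0.19, 95% interval -1.20 to -0.39, quasi-likelihood FDR 0.0139) was the lowest of the 10 genes and equals 42.4% lower RNA. The highest value, 42.71 CPM, was in control mouse 2, and the next control mouse was at 25.2 CPM. Without control mouse 2 the log2 fold change was -0.57 with an FDR of 0.0080 from the same test.

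G6pc, on chromosome 11 from 101367730 to 101377903 (mm10, plus strand), differed from Pck1 and Fbp1 in how far its mice lay apart. Control mice ran from 508.3 CPM through a median of 914.4 to 1117 CPM, and BIBB-515 mice from 276.8 through 595.4 to 879.8 CPM. The groups overlapped over much of their range: control mice 5 and 6 were at 599.4 and 508.3 CPM, while BIBB-515 mice 6 and 7 were at 879.8 and 790.9 CPM. The fitted level was 30.0% lower with BIBB-515, but the quasi-likelihood FDR was 0.194. Its 95% interval ran from 0.479 to 1.02 times the control level, which holds the fitted ratio of Pck1, 0.677. G6pc was also one of 3 genes whose spread between mice was not smaller with BIBB-515, the coefficient of variation being 29.0% in control mice and 37.8% with BIBB-515.

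Pcx, which feeds pyruvate carbon into the route, is on chromosome 19 from 4510472 to 4621752 (mm10, plus strand). It ran from 559.8 CPM through 777.2 to 856.5 CPM in control mice and from 620.1 through 676.1 to 750.7 CPM with BIBB-515. Control mouse 4 held the lowest value of all 12 mice, the other 5 control mice included 4 above every BIBB-515 mouse, and the log2 difference of -0.15 did not pass the test (95% interval -0.35 to 0.06, quasi-likelihood FDR 0.336). Slc37a4, the glucose 6-phosphate transporter that supplies G6pc, ran from 244.3 through 310.1 to 368.1 CPM in control mice and from 299.2 through 352 to 438.2 CPM with BIBB-515. Its log2 difference was 0.21 (95% interval -0.03 to 0.45, FDR 0.22 from the same test), so the transporter and the phosphatase it serves had fitted values of opposite sign, and neither passed.

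Got1, which turns aspartate into oxaloacetate in the cytosol, where Pck1 uses it, had the highest ratio of the 10 genes between the highest and the lowest control mouse, 3.19. It ran there from 412.7 through 670 to 1317 CPM, and with BIBB-515 from 441.2 through 608.3 to 868.5 CPM. The top value was control mouse 2, and without it the log2 difference went from -0.28 (FDR 0.454) to -0.04 (FDR 0.92), both from edgeR's quasi-likelihood test. Pdk4, the kinase that shuts pyruvate dehydrogenase in fasting so that pyruvate is spared for Pcx, was a low-level gene with 299 to 862 reads per mouse. It ran from 11.57 through 21.59 to 29.88 CPM in control mice, and 4 of the BIBB-515 mice lay closely together between 11.5 and 13.24 CPM while mouse 11 was at 19.23 CPM and mouse 6 at 27.33 CPM. Its log2 difference of -0.42 did not pass (95% interval -0.97 to 0.12, quasi-likelihood FDR 0.287). Without BIBB-515 mouse 6 it was -0.65 (FDR 0.0812).

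Foxo1, the insulin-restrained factor that drives G6pc and Pck1, ran from 39.02 through 47.77 to 89.57 CPM in control mice and from 37.34 through 46.15 to 55.48 CPM with BIBB-515. The medians nearly met, and without control mouse 2, at 89.57 CPM, the log2 difference went from -0.27 (FDR 0.313) to -0.08 (FDR 0.705), both from edgeR's quasi-likelihood test. RNA does not show where the FOXO1 protein was. Creb3l3, a membrane-bound factor of hepatocytes that fasting activates by cleavage, ran from 218.1 through 418.3 to 526.6 CPM in control mice and from 411.5 through 447.5 to 521.4 CPM with BIBB-515. All 6 BIBB-515 mice were above the control mean of 407 CPM, but the control mice reached both lower and higher, and the log2 difference of 0.18 did not pass (95% interval -0.16 to 0.52, FDR 0.492 from the same test). Without control mouse 3, at 218.1 CPM, it was 0.06, and without control mouse 5, at 526.6 CPM, 0.27.

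**Figure D2:**
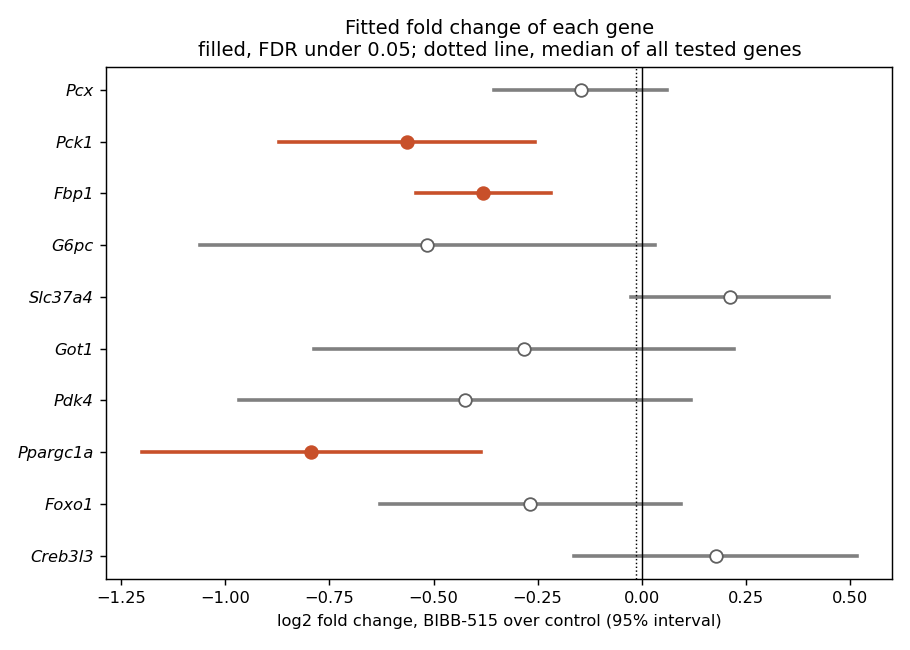
Fitted log2 fold change of each gene, BIBB-515 over control (n = 6 per diet), with its 95% interval; filled points have an FDR under 0.05 and the dotted line is the median of all tested genes. The intervals of Pck1, Fbp1 and Ppargc1a lie below 0, and those of the other 7 genes include it.

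Measured singly on log2 CPM, the same 3 genes had a two-sided exact permutation p under 0.05, namely 0.00216 for Fbp1 (the smallest that 6 mice against 6 allow), 0.00433 for Ppargc1a and 0.00649 for Pck1, unadjusted. Set against B2m, the gene the study used as its qPCR reference, whose own log2 fold change was -0.05 (quasi-likelihood FDR 0.752), the differences in mean log2 ratio were -0.34 for Fbp1, -0.70 for Ppargc1a and -0.50 for Pck1. Their exact permutation p values were 0.00649, 0.0108 and 0.00216, and those of the other 7 genes ran from 0.113 to 0.55. The qPCR itself was not analysed here. The paper reports from it higher Pck1 and G6pc RNA with BIBB-515, and it also reports higher blood glucose. That qPCR covered more mice per diet than the RNA-seq. Its direction is opposite to the negative fitted values of both genes here, of which only that of Pck1 passed the test. The cause of this difference was not tested. In all 10 other settings tried and in all 12 fits that each left out 1 mouse, Pck1, Fbp1 and Ppargc1a stayed below an FDR of 0.05 and the other 7 stayed above it. Leaving out 1 mouse, the log2 fold change ran from -0.63 to -0.43 for Pck1, from -0.42 to -0.35 for Fbp1 and from -0.87 to -0.57 for Ppargc1a.

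Spread between mice was itself smaller with BIBB-515 in 7 of the 10 genes, the exceptions being G6pc, Fbp1 and Pdk4. The median coefficient of variation over the 10 genes was 27.8% with control diet and 13.4% with BIBB-515. The SD of log2 CPM was smaller with BIBB-515 in 8 of the 10 genes and in 77.9% of all tested genes. Control mouse 2 had the highest control value of 5 members (Pck1, Slc37a4, Ppargc1a, Foxo1 and Got1), control mouse 6 the lowest of 4 (G6pc, Slc37a4, Ppargc1a and Got1), and control mouse 3 the lowest of 3 (Pck1, Fbp1 and Creb3l3).

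Levels could be compared between genes only per kilobase of exon. In control mice the order of mean CPM per kilobase was Pck1 (1518), Fbp1 (862), G6pc (377.9), Got1 (358.6), Creb3l3 (178.3), Pcx (175.8), Slc37a4 (150.7), Foxo1 (9.98), Pdk4 (6.20) and Ppargc1a (3.80). Pck1 ranked 46 and Fbp1 76 among the 12481 tested genes by mean level per kilobase over all mice, whereas Ppargc1a ranked 8065. Within each of the 6 control mice Pck1 exceeded Fbp1, Fbp1 exceeded G6pc, Slc37a4 exceeded Foxo1 and Foxo1 exceeded Pdk4 (two-sided exact sign-flip permutation test for each pair, p = 0.0312, the smallest that 6 mice allow). The remaining neighbours in the order did not differ beyond their spread, with exact permutation p values from 0.0625 (Got1 against Creb3l3) to 1.0 (Creb3l3 against Pcx). With BIBB-515 the level of Pck1 was 1027 and of Fbp1 662.4 CPM per kilobase, in the same order in 6 of 6 mice.

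The deposited counts per exon showed where along a gene the reads differed, and are described here for some of the members. All 10 exons of Pck1 were lower with BIBB-515, each with an unadjusted exact permutation p under 0.05, and the difference of mean log2 CPM ran from -0.38 on the first exon to -0.57 on the last. Fbp1 likewise was lower on 7 of 7 exons, from -0.28 on the first to -0.42 on the last, each at p under 0.05, and on the 5 exons from the third to the last the 6 BIBB-515 mice were below all control mice. Of the 14 exon rows of Ppargc1a, some of which overlap one another, 4 had at least 10 reads in every mouse, and all 4 were lower with an exact permutation p under 0.05 (from -0.85 to -0.54). Its last exon, which holds most of the reads, differed by -0.72 (exact permutation p = 0.00433). The 5 exons of G6pc were lower by -0.66 to -0.54, none with p under 0.05. Slc37a4 was the mirror case, with all 8 exons higher by 0.16 to 0.32, 2 of them at an exact permutation p under 0.05. Pcx was not uniform along the gene. Of its 21 exons with at least 10 reads in every mouse, 19 were lower and 2 higher, from -0.91 to 0.58. Of these, 3 had an unadjusted exact permutation p under 0.05.

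**Figure D3:**
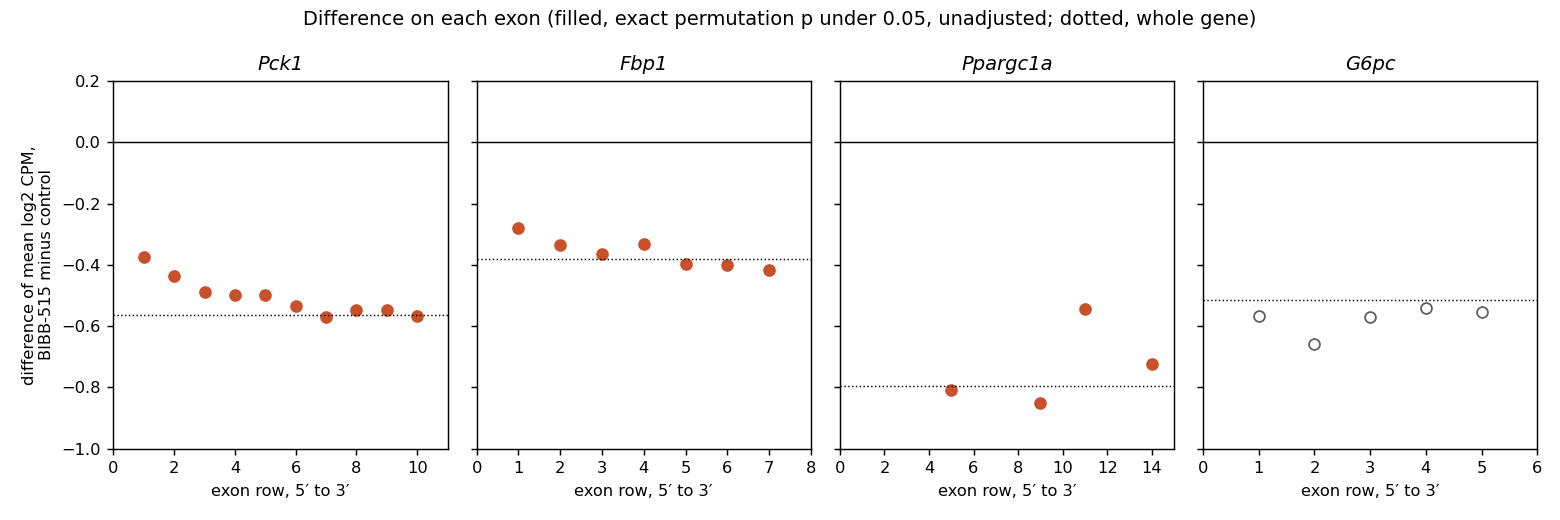
Difference of mean log2 CPM, BIBB-515 minus control (n = 6 per diet), on each exon row with at least 10 reads in every mouse, numbered from the 5′ end; filled points have an unadjusted exact permutation p under 0.05 and dotted lines give the fitted fold change of the whole gene. In Pck1 and Fbp1 the difference is smaller in size at the 5′ end, -0.38 and -0.28, and grows to -0.57 and -0.42.

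The 5′ to 3′ balance of reads was therefore measured in each library. Over 3110 genes with at least 6 exons and at least 100 reads at both ends in every mouse, the median log2 ratio of reads on the exons nearer the 5′ end to reads on the last exon, relative to the mean of all mice, was -0.43 to 0.17 in control mice and -0.25 to 0.23 with BIBB-515. The lowest were control mouse 4 at -0.43, BIBB-515 mouse 11 at -0.25 and control mouse 5 at -0.20. The diets did not differ in it beyond the spread between mice (difference 0.076, two-sided exact permutation p = 0.548). With this ratio as a covariate the log2 fold changes were -0.55 for Pck1, -0.38 for Fbp1 and -0.82 for Ppargc1a, and with reads on the last exon only they were -0.57, -0.39 and -0.76, all with an FDR under 0.05 from edgeR's quasi-likelihood test. Both settings were chosen after the exon values were seen.

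Whether members moved together from mouse to mouse was examined over deviations of log2 CPM from the mean of the mouse's diet, in 45 pairs over 12 mice. Of the 45 Pearson correlations 29 were positive, with a median of 0.19. One pair, Slc37a4 and Got1, passed after adjustment over the 45 pairs (r = 0.876, permutation p = 0.00052, adjusted p = 0.0234; Spearman's rho = 0.881, permutation p = 0.00067, adjusted p = 0.0301). It was 0.896 in control mice and 0.873 with BIBB-515, and 0.79 without control mouse 6 and BIBB-515 mouse 11, those farthest from the median. Pck1 and its coactivator gene Ppargc1a had r = 0.786 (permutation p = 0.0148, adjusted p = 0.167; rho = 0.657, permutation p = 0.032, adjusted p = 0.317), and r = 0.781 without control mice 2 and 3, those farthest from the median. Ppargc1a and Foxo1 had r = 0.818 (permutation p = 0.0125, adjusted p = 0.167; rho = 0.72, permutation p = 0.0162, adjusted p = 0.258), which went to 0.564 without control mouse 2 and BIBB-515 mouse 9. Fbp1, which like Pck1 was lower with BIBB-515, had r = 0.358 with Pck1 (permutation p = 0.282, adjusted p = 0.608). Its lowest correlation was with Pdk4 (r = -0.606, permutation p = 0.0528, adjusted p = 0.264).

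**Figure D4:**
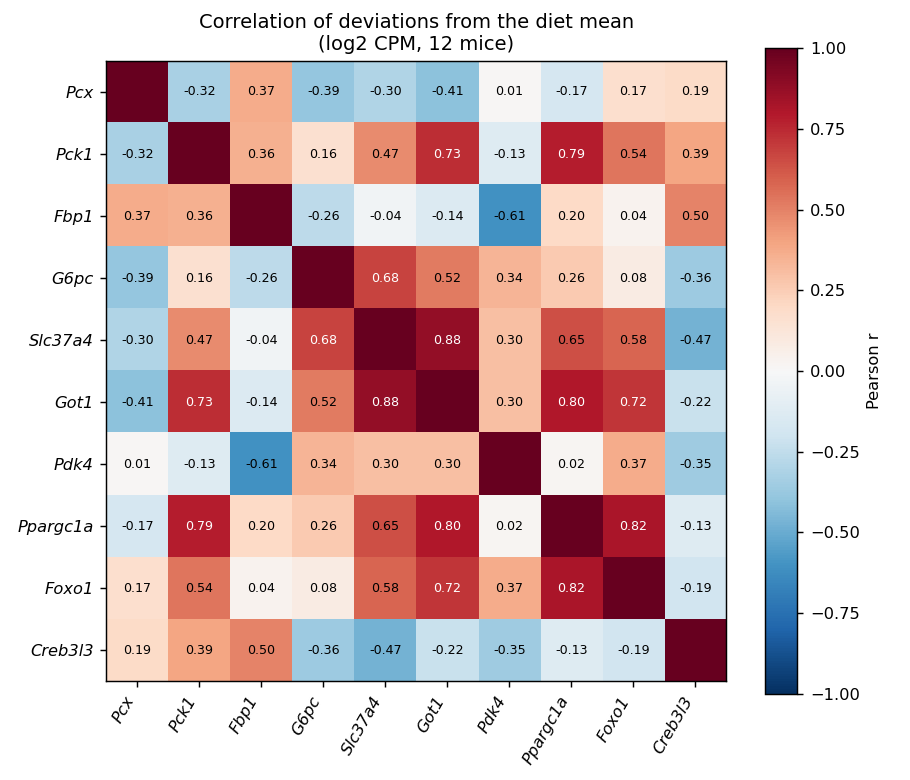
Pearson correlation of each pair of genes over deviations of log2 CPM from the diet mean in 12 mice, red positive and blue negative. The pairs among Pck1, Got1, Ppargc1a and Foxo1 are red, but none of them passed after adjustment. Only the pair of Slc37a4 and Got1, at 0.88, passed after adjustment over the 45 pairs.

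Among 8498 genes that are no members and have an average log2 CPM of at least 3, those whose deviations over the 12 mice were most like those of Pck1 included Stard5 (r = 0.901), Pim3 (0.894), Rhbdd2 (0.886) and Ncdn (0.883). For G6pc they were Fam179b (r = 0.918), Fbrsl1 (0.895), Fnbp4 (0.893), Brpf1 (0.882) and Zfp746 (0.866). Of those named for G6pc, Zfp746 rose by 0.30 on the log2 scale (quasi-likelihood FDR 0.0416) and the other 4 did not pass. None of the 4 genes named for Pck1 passed an FDR of 0.05 between the diets by edgeR's quasi-likelihood test, their log2 fold changes running from 0.05 (Stard5) to 0.36 (Rhbdd2). These r values are the highest of many and are given as a description.

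Beyond the members, the route has further enzymes and carriers, of which 27 were tested. Of these 3 rose and 4 fell (25.9% past the test, against 13.7% of all tested genes), with a median log2 fold change of 0.05. This list was chosen with earlier results of these data known, so the share is a description. Pck2, the mitochondrial PEPCK, fell by 0.38 on the log2 scale (quasi-likelihood FDR 0.00733), from 9.68 ± 0.939 to 7.43 ± 0.553 CPM (SD, n = 6), so both PEPCK genes were lower. Of 4 genes that handle glycerol, the kinase gene Gyk fell by 0.61 and the mitochondrial glycerol 3-phosphate dehydrogenase gene Gpd2 by 0.51 on the log2 scale (FDR 0.0158 and 0.0116 from the same test). The others did not pass, the glycerol channel gene Aqp9 having a positive value of 0.27 (FDR 0.109) and the cytosolic dehydrogenase gene Gpd1 a negative value of -0.35 (FDR 0.212), both named after their values were seen. Pgk1, a reversible enzyme that glycolysis shares, rose instead, by 0.35 on the log2 scale (quasi-likelihood FDR 0.00294), its mice at 120 to 145 CPM with control diet and 153 to 181 CPM with BIBB-515. Without control mouse 6, or BIBB-515 mouse 8 or 11, the number past the test was 4.

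Of 36 other regulators of the route tested, 3 rose and 2 fell, with a median log2 fold change of -0.06. That is 13.9% past the test, near the 13.7% of all tested genes. Trib3, a pseudokinase reported to bind AKT, rose by 1.40 on the log2 scale (quasi-likelihood FDR 1.25e-05), from 4.25 to 7.93 CPM in control mice to 12.7 to 16.6 CPM with BIBB-515. The transcription factor gene Cebpb rose by 0.60 (FDR 0.018), Creb1, the gene of CREB itself, fell by 0.31 (FDR 0.0175), and the deacetylase gene Sirt1 fell by 0.31 on the log2 scale (FDR 0.0236), all from the same test. Without BIBB-515 mouse 8 or 9, Sirt1 was at an FDR of 0.0554 or 0.0569 and the number past the test was 3.

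Targets listed for the members that are transcription factors did not follow the RNA of the factor in a single way. None of the 8 listed FOXO1 targets passed by edgeR's quasi-likelihood test, DESeq2 or limma-voom, 1 having an unadjusted p under 0.05 (Pnpla2, log2 difference 0.38, FDR 0.114). Without control mouse 2 Pnpla2 was at 0.56 with an FDR of 0.0034 from the first test. Creb3l3 itself had a positive value that did not pass. The list of genes driven by CREB3L3 was chosen with earlier results of these data known, so its share is a description. Of 9 genes listed as driven by CREB3L3, 4 fell and none rose (44.4%, against 13.7% of all tested genes), with a median of -0.41. These were the hormone gene Fgf21, at 11.5 ± 4.83 CPM in control mice and 3.28 ± 0.875 CPM with BIBB-515 (SD, n = 6; log2 fold change -1.80, quasi-likelihood FDR 0.000508), the apolipoprotein genes Apoa4 (-1.15, FDR 0.00161) and Apoa5 (-0.41, FDR 0.0143), and Apcs, which encodes serum amyloid P (-0.74, FDR 0.00151). Of 12 fasting-induced PPARA targets, a program that runs beside gluconeogenesis and holds Fgf21 too, that gene fell and the other 11 did not pass (median -0.13).

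The enzymes that run against the members were lower in part. Of the tested genes of the opposing glycolytic steps, Pklr, the liver kinase that turns phosphoenolpyruvate into pyruvate, fell by 0.89 on the log2 scale (quasi-likelihood FDR 0.0194), while the aldolase gene Aldoc rose by 1.15 (FDR 8.41e-05). Ratios within a mouse were computed after these values were seen, for 4 pairs, of which 3 are given. The log2 ratio of Fbp1 to Pfkl, the phosphofructokinase that opposes it, was 5.01 ± 0.233 in control mice and 4.60 ± 0.0878 with BIBB-515 (SD, n = 6; difference -0.42, two-sided exact permutation p = 0.00866, adjusted over the 4 pairs 0.0346). For Pck1 to Pklr the difference was 0.28 (exact permutation p = 0.465) and for Pck1 to Pck2 -0.16 (exact permutation p = 0.26). The Pck1 ratios did not differ beyond the spread between mice.

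Around Pdk4, none of 10 genes of the pyruvate dehydrogenase complex and its other kinases and phosphatases passed by edgeR's quasi-likelihood test, and 1 had an unadjusted p under 0.05. That gene, the kinase Pdk2, had a log2 difference of 0.28 with an FDR of 0.0583. It passed in 5 of 10 other settings, among them DESeq2 and limma-voom, but in only 1 of 12 fits without 1 mouse. In those 12 fits its quasi-likelihood FDR reached 0.118. Of 15 genes of amino acid breakdown that yields carbon for the route, 2 rose and none fell, with a median of 0.02. The share past the test, 13.3%, was near the 13.7% of all tested genes. Hal, the first enzyme of histidine breakdown, rose by 0.55 on the log2 scale (quasi-likelihood FDR 0.0045), and its mice, at 222 to 383 CPM with control diet and 431 to 483 CPM with BIBB-515, did not overlap. Cth, which splits cystathionine into cysteine and a keto acid, rose by 0.58 (FDR 0.0286), but without control mouse 6 or BIBB-515 mouse 6 or 11 its FDR was up to 0.0607 from the same test and 1 gene of the list passed.

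**Figure D5:**
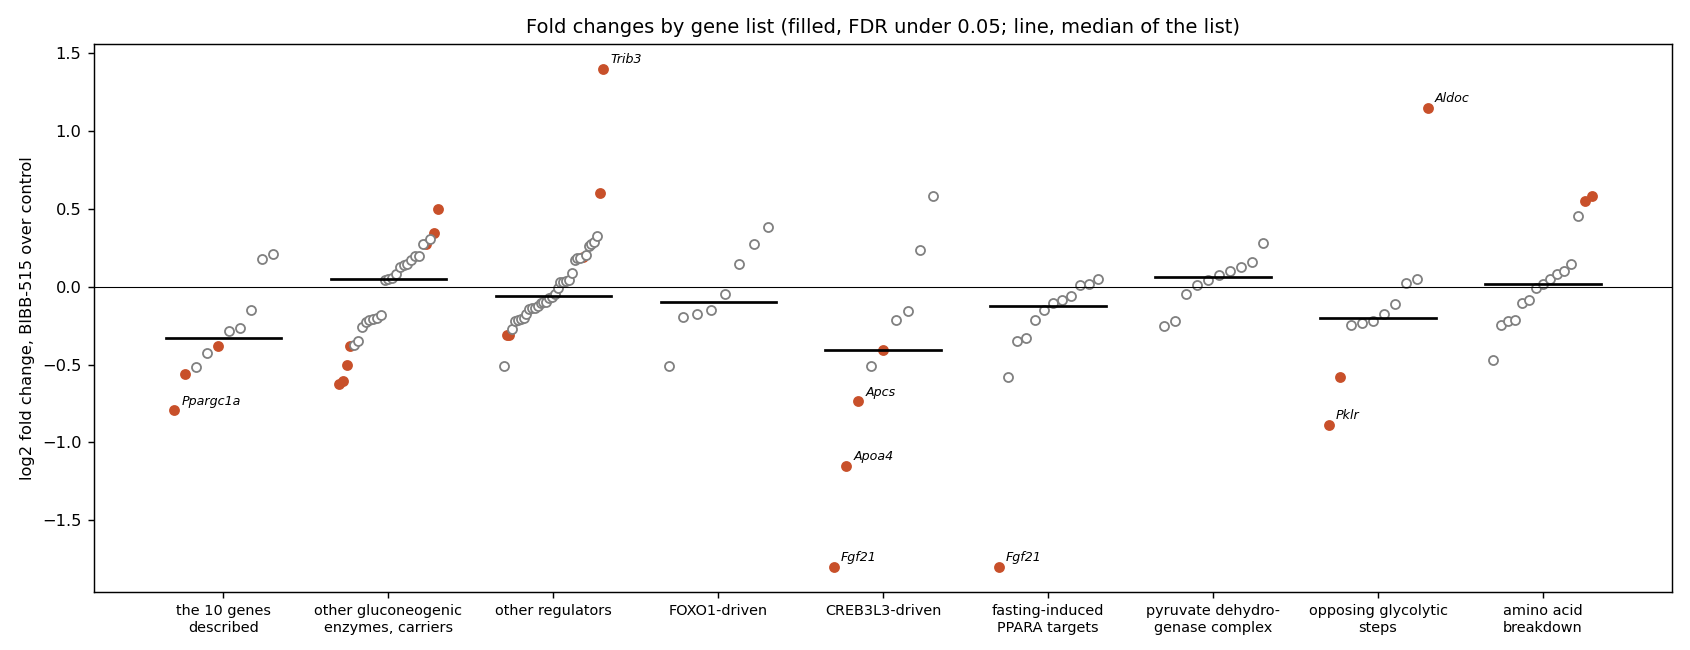
Fitted log2 fold change, BIBB-515 over control (n = 6 per diet), of every tested gene of the 10 described and of 8 further lists, filled where the FDR is under 0.05, with the median of each list as a line. The median of the 10 genes, -0.33, and that of the CREB3L3 list, -0.41, are the lowest, and every list holds values on both sides of 0.

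Periportal hepatocytes carry most gluconeogenic enzymes and pericentral ones most glycolytic enzymes, so their markers are set beside the members. Of 6 periportal markers Hal and Cyp2f2 rose and none fell, and the summed level was 4990 to 9040 CPM in control mice and 6660 to 7930 CPM with BIBB-515. Of 8 pericentral markers Cyp1a2 rose and Glul, Slc1a2 and Lgr5 fell, with summed levels of 4660 to 8340 CPM and 6190 to 7400 CPM. Cps1 made up much of the periportal sum, at 3310 to 6660 CPM in control mice and 4150 to 5080 CPM with BIBB-515. Ass1 was counted at only 0.525 to 1.66 CPM and 0.464 to 1.02 CPM. Beside these marker counts, 13.7% of all tested genes passed in either direction. The summed levels overlapped for both zones, and the part of the zones in the lower Pck1 and Fbp1 was not tested. Of 6 stellate cell markers Lrat and Dcn fell, and among 18 markers of Kupffer, sinusoidal endothelial, bile duct and white blood cells no gene passed edgeR's quasi-likelihood test, 2 had an unadjusted p under 0.05, and DESeq2 called 1 and limma-voom none. Of 15 core clock genes, which cycle with feeding and time of day as Pck1 does, Nfil3 fell by 0.69 on the log2 scale (quasi-likelihood FDR 0.0382, but 0.0612 with limma-voom) and the other 14 did not pass. Lss, the gene of the enzyme that BIBB-515 inhibits, was at 78.8 ± 47.1 CPM in control mice and 136 ± 26.1 CPM with BIBB-515 (SD, n = 6), with an FDR of 0.0854 from edgeR's quasi-likelihood test. Its FDR was 0.0432 with limma-voom, 0.000346 with 1 surrogate variable and 0.00266 without control mouse 3, where the log2 fold change went from 0.78 to 1.15. These were the only fits in which Lss passed, 2 of 10 other settings and 1 of 12 fits without 1 mouse. Its FDR reached 0.116 among the settings and 0.158 among the fits without 1 mouse.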

How the data were processed

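RNA-seq was measured in liver of 12 mice, 6 per diet. Separate samples are numbered in the labels, and each sample was taken as a separate mouse. The authors deposited, per mouse, tables of raw counts for genes and for exons. Per the file headers they were made with featureCounts 1.6.3 on the mm10 build, without a strand option and without multi-mapping reads or reads that overlap several genes. The submitters' processing notes name STAR 2.5.3a. No member's exons overlap those of another gene. Counts per transcript were not used.

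Genes reaching 1 CPM in 2 or more of 12 mice (10%) were kept, 12481 of 24062. After TMM normalization they went into edgeR's quasi-likelihood test (edgeR 4.0.16, R 4.3.3), fitted on diet alone, and p-values were adjusted after Benjamini-Hochberg over all of them. The script was tested on simulated data. Single values used two-sided exact permutation tests over the 924 labelings of the mice, on log2 CPM with a prior count of 0.5, and correlations 100000 permutations within diet. The alternatives were DESeq2 1.42.0, limma-voom (limma 3.58.1), upper-quartile and relative log expression scaling, other filters, the deposited primary-alignment counts, a surrogate variable (sva 3.50.0), and each mouse left out. After the exon values were seen, 5′ coverage as covariate and last exons only were added.

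Named are the 10 members, B2m and Lss, up to 4 genes of each list with the lowest FDR past 0.05 (none past, the lowest p), and the 5 genes most like Pck1 and G6pc. Pfkl was named after its values were seen. A few results for genes named this way are left out, but all counts include them. The members and lists were chosen with earlier results of these data known. The p-values measure the spread between these mice, and counts of 299 to 159148 reads per member and mouse set the precision.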

Additional observations from a re-analysis of the deposited data

Results flagged for a closer look

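In 64 groups of 6 mice examined (total counts and each named gene, per diet), 1 mouse stood apart from the others by Dixon's 95% criterion, the gap to the nearest mouse divided by the range of the group, in 3 groups, where chance alone gives about 3.2. Among the members this was Ppargc1a with control diet, with a ratio of 0.694, where control mouse 2 was at 42.71 CPM and the next mouse at 25.2 CPM. For Pgk1, control mouse 3 was at 144.9 CPM and the next at 126.4 CPM (ratio 0.735), and BIBB-515 mouse 11 was at 181.3 CPM and the next at 160.6 CPM (ratio 0.729).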

How the results depend on the processing

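Pck1, Fbp1 and Ppargc1a kept their direction and their side of the threshold under all 10 other settings and all 12 fits without 1 mouse, and the other 7 members kept theirs. The cause of the following changes in the lists was not tested. The 7 other enzymes and carriers past an FDR of 0.05 became 11 with DESeq2 and 13 with 1 surrogate variable, the fasting-induced PPARA targets went from 1 to 2 and the amino acid genes from 2 to 4 with the surrogate variable, and the pyruvate dehydrogenase list from 0 to 1 with upper-quartile scaling, DESeq2, limma-voom or last exons only and to 2 with the surrogate variable. Leaving out 1 mouse gave 4 to 9 other enzymes, 3 to 6 regulators, 0 to 1 FOXO1 targets, 1 to 2 PPARA targets, 0 to 2 genes of the pyruvate dehydrogenase list and 1 to 3 amino acid genes. The PPARA count of 2 came without control mouse 3, and the pyruvate dehydrogenase count was 2 without control mouse 3 and 1 without control mouse 2. The log2 fold change of B2m, -0.05, ran from -0.0823 to 0.00693, the latter without control mouse 4. No paired analysis was possible because the diets share only 1 replicate number, 6. At 299 to 862 reads per mouse Pdk4 is the member with the least depth.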
